A study of Mus musculus with 15 samples.

Results

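The grainyhead and CP2 transcription factors form one family, with 6 members in the mouse: the grainyhead-like genes Grhl1, Grhl2 and Grhl3 and the CP2 genes Tfcp2, Tfcp2l1 and Ubp1. Its members were found as the probe sets that the platform annotation pairs with 1 of these genes alone. Each of the 6 genes had 1 such probe set, so 6 of the 23521 probe sets with a single gene symbol are described. They were measured in whole kidneys of 15 mice aged about 6 months, of which 8 were Grhl1 knockouts (KO, Grhl1-/-, replicates 8 to 15) and 7 were wild type (WT, Grhl1+/+, replicates 1 to 7). Neither group received a treatment by the labels. Strain, sex, litter, the deleted part of Grhl1 and whether it was deleted in every tissue are not stated in those labels. Total RNA was hybridised to a 1-colour expression array, and each value is the authors' summary of a probe set after robust multi-array average (RMA). The values are taken to be on a log2 scale. A difference of 1 on this scale is a doubling of brightness, and all differences are KO minus WT.

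Grainyhead factors bind DNA as dimers and switch on genes of epithelial adhesion and barrier. Grhl1 is known for desmosomal cadherins and hair anchorage in the skin, Grhl3 for the skin barrier and the urothelium, and Grhl2 for tight junctions and the lumen of collecting ducts in the kidney. The CP2 branch is broader: Tfcp2 (LSF) and its close relative Ubp1 act in many tissues, and Tfcp2l1 is known in the kidney for the patterning of principal and intercalated cells of the collecting duct, the nephron's last segment.

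The sequences that bear on these genes are short windows before their start sites, taken from RefSeq on GRCm38.p6 and written 5′ to 3′ on the gene's strand. Of the 6 genes, 5 had a listed promoter window, 7 windows in all, each spanning 250 bases before to 50 after a start site. Grhl2 had none, so the windows say nothing of it. Grhl1 has 2 listed starts, and which of them the array's probes cover is not given, so the 120 bases before each are shown. Tfcp2l1 is shown because its level separated the samples as described below. Rab25, a small GTPase of epithelial vesicle recycling linked to Grhl2 in the kidney, is shown as the gene of the target list whose window held a grainyhead motif. Capitals mark a TATAAA in Tfcp2l1 and the grainyhead variant AACAGGTT in Rab25, which reads AACCTGTT on this strand.
Grhl1, start at the 5′ side (chr12:24572167-24572286, plus strand): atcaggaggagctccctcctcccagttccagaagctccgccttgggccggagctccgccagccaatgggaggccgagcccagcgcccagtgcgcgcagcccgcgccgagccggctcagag
Grhl1, start at the 3′ side (chr12:24580599-24580718, plus strand): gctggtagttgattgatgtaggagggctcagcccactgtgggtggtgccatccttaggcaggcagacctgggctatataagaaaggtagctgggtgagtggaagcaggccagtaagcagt
Tfcp2l1 (chr1:118627825-118627944, plus strand): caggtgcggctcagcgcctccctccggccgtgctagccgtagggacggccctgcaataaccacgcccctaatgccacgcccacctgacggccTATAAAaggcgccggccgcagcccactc
Rab25 (chr3:88548280-88548399, minus strand): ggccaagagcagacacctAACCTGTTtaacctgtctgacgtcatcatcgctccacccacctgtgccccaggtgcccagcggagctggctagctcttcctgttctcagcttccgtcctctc

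Motifs were searched on both strands of the whole windows. The grainyhead palindrome AACCGGTT stood in 0 of the 7 family windows and in 0.146% of all 32851 windows. The variant AACAGGTT was also in 0 of 7, in 0.962% of all windows, and among the 21 genes of the pathway lists below that had a window it was in Rab25 alone. A direct repeat bound by CP2 factors, CCAG followed after any 6 bases by a further CCAG, was in 0 of 7 and in 3.44% of all windows. TATAAA was in 1 of 7, that of Tfcp2l1, and in 13.6% of all windows. The family's windows ranged in GC content from 51.3% at the 3′ start of Grhl1 to 85.0% at a start of Ubp1, against a median of 52.7% over all windows. These are matches of letters and nothing about binding was measured.

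The arrays were alike as a whole. Their medians lay between 5.51 and 5.59 over 41345 probe sets, and their pairwise correlations between 0.976 and 0.991. Markers fixed for kidney tubule and glomerulus, 9 of 10 measured, averaged 11.6 to 11.9 in each sample, which fits the labelled tissue. In other respects the samples differed across the genotypes. The 3 measured Y-linked genes averaged 3.96 to 4.26 in KO replicates 13, 14 and 15 and WT replicates 6 and 7, and 8.37 to 8.68 in the other 10 samples. Xist, the RNA of X-chromosome inactivation, was at 11.4 to 11.6 in the same 5 samples and at 3.60 to 4.29 in the other 10. Adrenal cortex transcripts were high in 6 samples (KO replicates 10 to 13, WT replicates 2 and 3), and liver transcripts in 3 (KO replicate 10, WT replicates 3 and 7). Genotype differences of family members that moved by over 1.5 times without such samples are given with their values below. Those of the genes in the pathway lists are given over all 15 samples alone. How far they moved without such samples is not reported.

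Every member of the family had a value in kidney, as every probe set does after RMA, and their brightness was very different. Tfcp2l1 was the brightest probe set, at 10.7 to 11.2 over all samples, above 97.2% of all probe sets. Ubp1 lay at 8.80 to 9.09 (above 88.1% of probe sets) and Tfcp2 at 7.40 to 8.31 (above 79.1%). Grhl2 lay at 6.31 to 6.95 (above 65.7%), Grhl3 at 5.52 to 6.34 (above 54.1%) and Grhl1 at 4.40 to 5.25 (above 37.6%). In all samples Grhl1 was below the lowest array median of 5.51, and a value alone does not show that a gene was expressed. A probe set's brightness also depends on its probes, so these values place each gene within the arrays and do not order the genes by amount of RNA. In whole kidney, fewer cells of a type and less RNA per cell cannot be told apart.

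**Figure D1:**
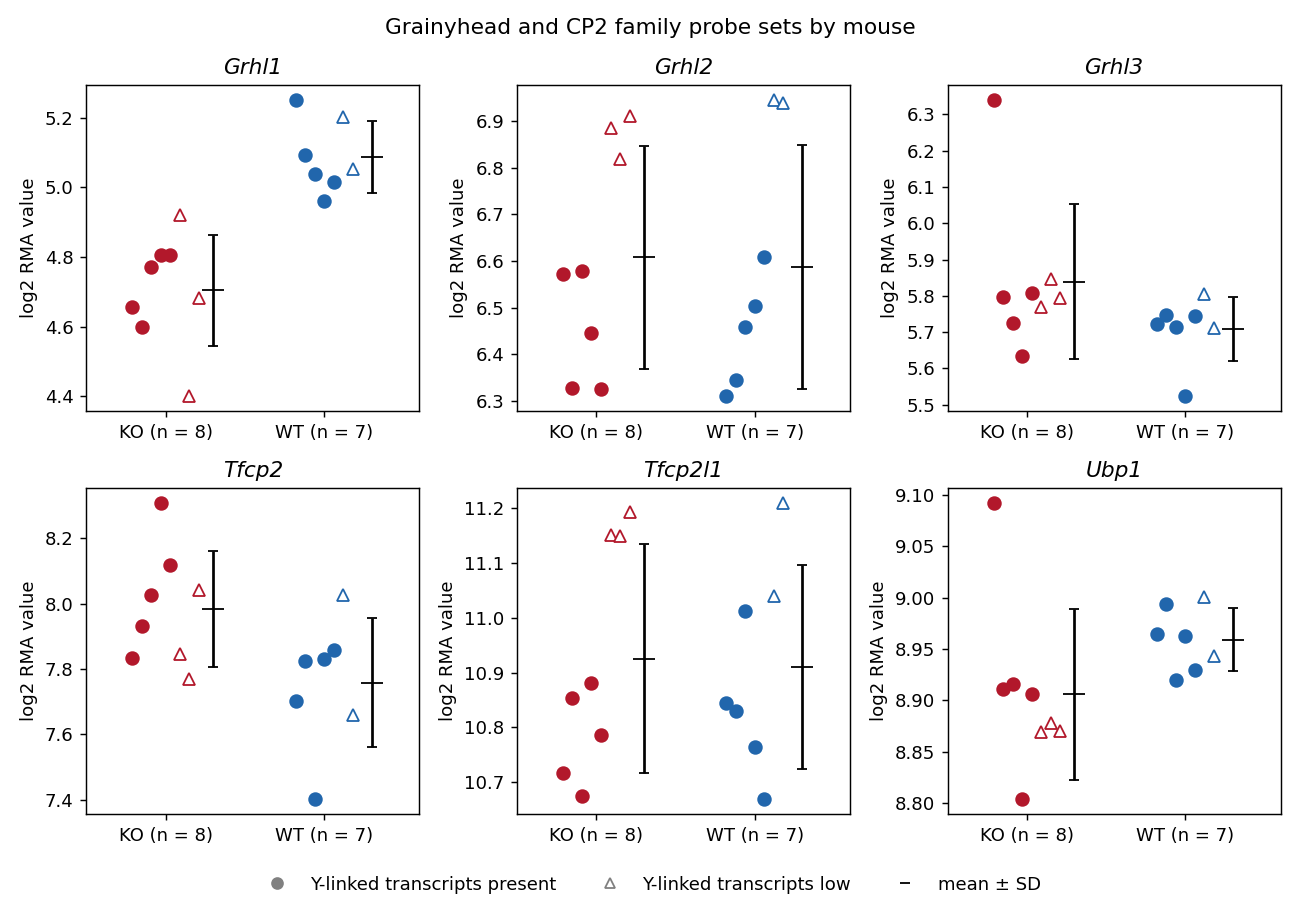
Log2 RMA value of each family probe set (y axes, scaled separately and not starting at 0) in the 8 KO and 7 WT kidneys, each point 1 mouse, with the mean ± SD of each group beside the points. Filled circles are samples with Y-linked transcripts and open triangles samples with low ones. Grhl1 separates the genotypes, Grhl2 and Tfcp2l1 separate the circles from the triangles, and 1 KO sample stands above the others in Grhl3 and Ubp1.

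Grhl1, the targeted gene, was lower in all 8 KO kidneys than in any WT kidney. Its lowest, median and highest values were 4.40, 4.73 and 4.92 in KO kidneys, against 4.96, 5.05 and 5.25 in WT kidneys. The groups did not overlap, which was so for 0.123% of all probe sets (0.0765% with KO lower). The means were 4.70 ± 0.16 in KO kidneys (SD, n = 8) and 5.09 ± 0.10 in WT kidneys (SD, n = 7), a difference of -0.38 (SE 0.07, 95% interval -0.53 to -0.23), or 0.767-fold. The position of the probe set against the deleted part is not given. The signal left in KO kidneys can therefore not be read as transcript or as background. Under limma over all 23521 probe sets, a moderated linear model, the adjusted p was 0.113 and the threshold of 0.05 was missed. The exact permutation p of this single difference was 0.00031, two-sided, and 10 probe sets had a smaller unadjusted p in limma. The spread behind it was ordinary: the SD within genotypes was 0.137, against a median of 0.170 over the 2104 probe sets within 0.25 of its level. Without the samples high in adrenal transcripts the difference was -0.51. It lay between -0.41 and -0.34 on leaving out any 1 mouse. It was -0.46 among the 5 samples with low Y-linked transcripts and -0.35 among the 10 that had them.

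The remaining 5 genes were then set against the genotype to ask whether a relative was higher where Grhl1 was lost. None of the 6 family probe sets passed limma's threshold, as 0.0128% of all probe sets did (3 of 23521). At an unadjusted p under 0.05 there were 2 of 6, Grhl1 and Tfcp2, against 5.55% of all probe sets. After adjustment the exact permutation test passed none of the 23521 probe sets, so its count says nothing of the family.

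Grhl2, the grainyhead factor of the collecting duct, did not differ by genotype beyond its wide spread. Its lowest, median and highest values were 6.32, 6.58 and 6.91 in KO kidneys and 6.31, 6.50 and 6.95 in WT kidneys, so the ranges almost coincided. The means were 6.61 ± 0.24 in KO kidneys (SD, n = 8) and 6.59 ± 0.26 in WT kidneys (SD, n = 7), with a difference of 0.02 (SE 0.12, limma adjusted p = 0.998). The 95% interval ran from 0.850-fold to 1.21-fold, so changes within those limits, either way, were not excluded here. Grhl2 also split by Y-linked transcripts, as described further on. Among the 10 samples that had them the means were 6.45 in KO and 6.45 in WT kidneys, a difference of 0.0042. Among the 5 with low ones the difference was -0.070, without the samples high in adrenal transcripts -0.0039, and without those high in liver transcripts 0.069.

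Grhl3, the grainyhead factor of skin barrier and urothelium, read higher in 1 KO kidney. Its lowest, median and highest values were 5.63, 5.80 and 6.34 in KO kidneys, against 5.52, 5.72 and 5.80 in WT kidneys, and the groups overlapped. The difference was 0.13 (SE 0.08, limma adjusted p = 0.973) with a 95% interval from 0.968-fold to 1.24-fold. KO replicate 8 alone gave the value of 6.34, and the other 7 KO kidneys lay between 5.63 and 5.85. Without that mouse the difference was 0.06 (limma adjusted p = 0.937). Without the samples high in adrenal transcripts it was 0.24 (limma adjusted p = 0.9999). It was 0.05 among the 5 samples with low Y-linked transcripts and 0.17 among the 10 that had them.

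Tfcp2 had the largest difference among the relatives of Grhl1 and missed the threshold. Its lowest, median and highest values were 7.77, 7.98 and 8.31 in KO kidneys, against 7.40, 7.83 and 8.03 in WT kidneys. The groups overlapped, with KO replicates 10, 11, 12 and 15 above every WT kidney and WT replicates 1, 3 and 7 below every KO kidney. The means were 7.98 ± 0.18 in KO kidneys (SD, n = 8) and 7.76 ± 0.20 in WT kidneys (SD, n = 7), a difference of 0.23 (SE 0.09, 95% interval 0.03 to 0.42), or 1.17-fold. Its unadjusted p was 0.0255 in limma and 0.0323 in the exact permutation test, and its limma adjusted p was 0.826, with 3.08% of all probe sets at a smaller p.

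The size of the Tfcp2 difference followed which samples were kept. Of the 4 KO kidneys above every WT kidney, 3 (replicates 10, 11 and 12) were also high in adrenal cortex transcripts. The remaining KO kidney high in them, replicate 13, had the highest adrenal list mean of all samples (9.25). It read 7.85 for Tfcp2, within the WT range. Among WT kidneys high in adrenal transcripts, replicate 2 read 7.83. WT replicate 3, the lowest for Tfcp2, was high in both adrenal and liver transcripts. Without the 6 samples high in adrenal transcripts the difference was 0.08, and without the 3 high in liver transcripts 0.13. With the adrenal list mean as a covariate it was 0.23, and with the liver mean 0.19. Among the 5 samples with low Y-linked transcripts it was 0.04, and among the 10 that had them 0.32, with means of 8.04 in KO and 7.72 in WT kidneys. The first of these differences minus the second was -0.28 (SE 0.19) and did not pass (limma interaction, adjusted p = 0.804). The part of these tissues in the result was not tested beyond these values.

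Tfcp2l1, the collecting duct member, did not differ by genotype beyond its spread. Its lowest, median and highest values were 10.7, 10.9 and 11.2 in KO kidneys and 10.7, 10.8 and 11.2 in WT kidneys. The means were 10.93 ± 0.21 in KO kidneys (SD, n = 8) and 10.91 ± 0.19 in WT kidneys (SD, n = 7), a difference of 0.02 (SE 0.10, limma adjusted p = 0.998, 95% interval 0.876-fold to 1.17-fold). The difference was 0.07 without the samples high in adrenal transcripts and 0.13 without those high in liver transcripts (limma adjusted p = 0.903). It was 0.04 among the 5 samples with low Y-linked transcripts and -0.04 among the 10 that had them.

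Ubp1, the relative of Tfcp2, was the steadiest member. Its SD within genotypes was 0.0646, and 13.2% of the 1153 probe sets within 0.25 of its level had a smaller one. Its lowest, median and highest values were 8.8037, 8.8924 and 9.0924 in KO kidneys, against 8.9197, 8.9630 and 9.0002 in WT kidneys. All KO kidneys but replicate 8 lay below the lowest WT kidney, and replicate 8 lay above the highest. The difference was -0.05 (SE 0.04, limma adjusted p = 0.979, 95% interval 0.906-fold to 1.03-fold), and -0.08 without KO replicate 8 (unadjusted p = 0.0390, limma adjusted p = 0.824). It was -0.02 without the samples high in adrenal transcripts, -0.10 among the 5 samples with low Y-linked transcripts and -0.03 among the 10 that had them.

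**Figure D2:**
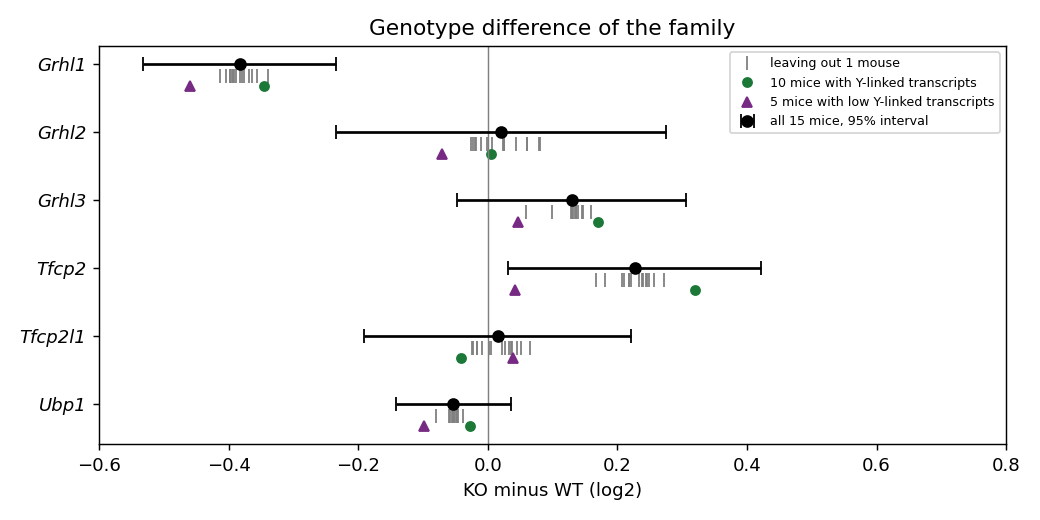
Genotype difference of each family probe set (x axis, KO minus WT, log2), as a black point with its 95% interval from limma over all 15 mice. Grey ticks below are the differences on leaving out 1 mouse, green circles those among the 10 mice with Y-linked transcripts and purple triangles those among the 5 with low ones. The intervals of Grhl1 (-0.53 to -0.23) and Tfcp2 (0.03 to 0.42) lie off 0, and neither probe set passed after adjustment over all probe sets.

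Grhl2 and Tfcp2l1 divided the samples by Y-linked transcripts rather than by genotype. Grhl2 read 6.82 to 6.95 in the 5 samples with low Y-linked transcripts and 6.31 to 6.61 in the 10 samples that had them, with means of 6.90 ± 0.05 and 6.45 ± 0.12 (SD, n = 5 and n = 10). Tfcp2l1 read 11.04 to 11.21 in the 5 samples with low Y-linked transcripts and 10.67 to 11.01 in the 10 others, with means of 11.15 ± 0.07 and 10.80 ± 0.10. The sets did not overlap in either gene, and both were higher where Y-linked transcripts were low, by 0.45 and 0.35. The other 4 members overlapped between the sets. Since these sets were read from the arrays and not from labels, the values stand without a test.

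The split was common in these kidneys, so it is not particular to the family. Over all probe sets 11.5% did not overlap between the same 2 sets of samples, 6.82% with higher values where Y-linked transcripts were low. Collecting duct markers moved with it: 5 of 10 principal cell markers and 6 of 11 intercalated cell markers were higher without overlap in the 5 samples with low Y-linked transcripts, as were 5 of 9 markers of other tubule segments and the glomerulus. The intercalated cell markers averaged 9.37 to 9.58 in those 5 samples and 8.98 to 9.25 in the other 10, and principal cell markers 8.99 to 9.26 and 8.64 to 8.96. Whether Grhl2 and Tfcp2l1 moved through the share of collecting duct cells was not tested.

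For no member did a test of whether the genotype difference varied with this split pass, and the smaller set held only 3 KO and 2 WT samples. The interaction term, the difference in the 5 samples with low Y-linked transcripts minus that in the other 10, ran from -0.28 for Tfcp2 to 0.08 for Tfcp2l1, with adjusted p from 0.804 to 0.926 in limma. Over all probe sets 0% passed that test, with 7.04% at an unadjusted p under 0.05.

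Co-variation was then measured over mice after each genotype's mean was subtracted, for all 15 pairs of members. None passed after adjustment over the pairs in 15 samples, and 2 had an unadjusted permutation p under 0.05, Grhl2 with Tfcp2l1 and Grhl3 with Ubp1. The other 13 pairs had Pearson correlations from -0.37 to 0.37. The closest partner of Grhl1 in 15 samples was Tfcp2 (r = 0.37, permutation p = 0.185, adjusted p = 0.755; Spearman rho = 0.29, permutation p = 0.319).

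The values of Grhl2 and Tfcp2l1 form 2 clusters of samples, so the relation was read within a cluster. Within the 10 samples with Y-linked transcripts the relation ran the other way than between the clusters: Pearson's r was -0.57 (permutation p = 0.104, adjusted p = 0.517) and Spearman's rho -0.64 (permutation p = 0.0706, adjusted p = 0.843), and it did not pass. The 5 samples with low Y-linked transcripts were too few to measure it.

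Grhl3 and Ubp1 varied together, with a Pearson correlation that depended much on KO replicate 8. Pearson's r over 15 samples was 0.86 (permutation p = 0.0104, adjusted p = 0.0782) and Spearman's rho 0.51 (permutation p = 0.0439, adjusted p = 0.517). Within the 10 samples with Y-linked transcripts r was 0.87 (permutation p = 0.0272, adjusted p = 0.408). Without the 2 samples farthest from the median of Grhl3, r was 0.08 (permutation p = 0.850) and rho 0.30 (permutation p = 0.343). Without KO replicate 8 alone, r was 0.41 (permutation p = 0.156) and rho 0.41 (permutation p = 0.164). The size of Pearson's r therefore rests on those samples, and rho moved less.

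KO replicate 8 was the highest of all 15 samples for both Grhl3 and Ubp1, and its ranks for Grhl1, Grhl2, Tfcp2 and Tfcp2l1 were 13, 8, 9 and 13 from the top. Its array did not stand apart over all probe sets: it lay beyond the outlier limit of its group in 1.10% of them, where the arrays ranged from 0.540% to 2.33%. Urothelial markers averaged 7.06 there, against 6.68 to 6.98 in the other KO kidneys and 6.83 to 7.27 in WT kidneys. KO replicate 8 was the highest KO sample in 3 of 9 and the highest of all 15 samples in 1. Epidermal markers averaged 5.71 in that sample, against 5.38 to 5.59 in the other KO kidneys and 5.40 to 5.60 in WT kidneys. Of 7, 3 were highest there among KO kidneys and 1 among all 15 samples. The share of all probe sets that were highest in KO replicate 8 was not counted, so these counts have no background beside them. The part of such cells in the value was not tested.

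**Figure D3:**
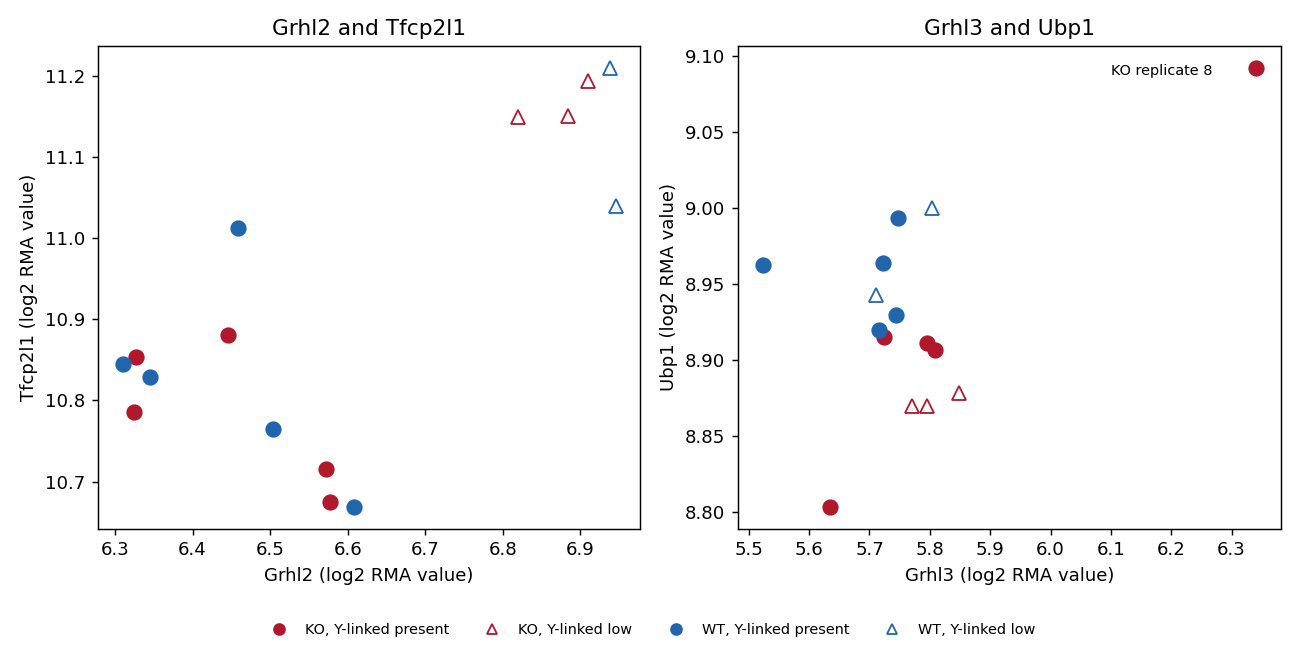
Log2 RMA values of Grhl2 against Tfcp2l1 (left) and of Grhl3 against Ubp1 (right), each point 1 mouse, KO in red and WT in blue, with open triangles for samples with low Y-linked transcripts. On the left the 5 triangles lie apart at the upper right, and the 10 circles slope down among themselves (r = -0.57 after removing genotype means). On the right KO replicate 8 lies alone at 6.34 and 9.09.

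The genes whose profile over the 15 mice was most like each member were then listed by Pearson's correlation after genotype means were removed. For Grhl2 these were Gucy1a1 (r = 0.97, 0.91 within the 10 samples with Y-linked transcripts), Smyd2 (0.95 and 0.87), Slc35f2 (0.95 and 0.65), Foxp1 (0.95 and 0.69) and Abcc1 (0.95 and 0.70). The most opposite were Fmnl1 (-0.95), Grtp1 (-0.95) and Kap (-0.95), the last an androgen-regulated gene of the mouse proximal tubule. All 8 separated the 2 sets of samples by Y-linked transcripts without overlap. Over the 15 mice 1169 probe sets had an r over 0.8 with Grhl2 and 808 an r under -0.8. Within the 10 samples with Y-linked transcripts 68 had an r over 0.8.

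For Tfcp2l1 the closest were Plxna2 (r = 0.95), Inpp5a (0.94), Gas6 (0.94), Slc1a3 (0.94) and the Wnt receptor gene Fzd4 (0.93), and the most opposite Slc26a1, a sulfate transporter of the proximal tubule (-0.97), Slc41a2 (-0.97) and Gpr137b (-0.97). Of these 8, 6 separated the same sets, and Plxna2 and Slc41a2 overlapped. Within the 10 samples with Y-linked transcripts the r of the first 5 ran from 0.72 for Inpp5a to 0.87 for Fzd4, and that of the last 3 from -0.95 for Gpr137b to -0.87 for Slc26a1. Over the 15 mice 806 probe sets had an r over 0.8 with Tfcp2l1 and 939 an r under -0.8, and within those 10 samples 94 had an r over 0.8.

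Over the 15 mice the other 4 members had fewer such genes. Grhl1 had 8 probe sets with an r over 0.8, led by Olfr1077-ps1 (0.88), Cd163l1 (0.86), Ccdc78 (0.84), Mbnl1 (0.84) and Vmn1r91 (0.82), with Tdrp, Vmn1r47 and AU040320 most opposite (-0.89, -0.88 and -0.85). Tfcp2 had 9, led by Slc35f3 (0.91), Dydc1 (0.88), Zcchc14 (0.85), 4932415M13Rik (0.84) and Ngef (0.82), against Sidt1, Rnf148 and Tafa5 (-0.85, -0.81 and -0.80). Grhl3 had 17, led by Vmn2r67 (0.88), Pnn (0.86), Cstdc4 (0.86), Ubp1 (0.86) and Zc2hc1c (0.84), against Vmn1r12, Gm6958 and Rps12-ps24 (-0.89, -0.84 and -0.84). Ubp1 had 12, led by Pmis2 (0.87), Zfp322a (0.87), 9530036O11Rik (0.86), Grhl3 (0.86) and Rab40b (0.82), against Snrnp35, Ffar4 and Olfr48 (-0.84, -0.82 and -0.81). Several of these are receptor genes of the olfactory and vomeronasal systems with dim probe sets, such as Vmn1r47 at a mean of 2.06 and Vmn2r67 at 2.56. Within the 10 samples with Y-linked transcripts the order of the members was different, with 147 probe sets at an r over 0.8 for Grhl1, 193 for Grhl3, 262 for Tfcp2 and 241 for Ubp1. An r over 0.8 is reached more easily over 10 samples than over 15, so counts from the 2 sets of samples cannot be compared. These lists were picked from 23521 probe sets over 15 mice and are descriptions without a test.

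The members were also set against the means of 6 gene lists (principal cells, intercalated cells, urothelium, epidermis, other kidney markers and grainyhead targets), 36 relations in all. Grhl2, Tfcp2l1 and most of these means split by Y-linked transcripts, so the relations were read within the 10 samples that have them. Over all 15 samples, which span the split, 9 of 36 passed after adjustment, all of Grhl2 or Tfcp2l1, from r = -0.79 for Tfcp2l1 with the epidermal mean (permutation p = 0.00062, adjusted p = 0.00744) to r = 0.92 for Grhl2 with the intercalated cell mean (permutation p = 0.00014, adjusted p = 0.00504). Within the 10 samples 0 of 36 passed after adjustment and 3 had an unadjusted permutation p under 0.05. The largest was Tfcp2 with the mean of the grainyhead targets (r = 0.83, permutation p = 0.0118, adjusted p = 0.357; rho = 0.70, permutation p = 0.0439, adjusted p = 0.340), which fell to r = 0.49 without the 2 samples farthest from the median. Tfcp2 with the principal cell mean was similar (r = 0.68, permutation p = 0.0291, adjusted p = 0.357; rho = 0.73, permutation p = 0.0280). It stood at r = 0.67 without the 2 farthest samples. Ubp1 ran against the other kidney markers (r = -0.50, permutation p = 0.0298, adjusted p = 0.357; rho = -0.81, permutation p = 0.0105), with r = -0.65 without the 2 farthest.

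Genes that grainyhead factors are known to act on in epithelia showed no called change. The list holds adhesion and tight junction genes (Cdh1, Cldn3, Cldn4, Epcam), the desmosomal cadherin Dsg1a, the serine proteases St14 and Prss8 with their inhibitor Spint1, Rab25, the splicing factor Esrp1, the receptor Erbb3, the skin transglutaminase Tgm1, Arhgef19 and the transcription factor Ovol2. Of its 14 measured genes 0 passed in limma in either direction and 0 had an unadjusted p under 0.05. Their median difference was 0.05, with 13 of 14 above 0 (92.9%), against a median of 0.0083 and 54.5% above 0 over all probe sets. These genes were measured in the same mice and are not independent. As described below, 5 of them carried the split by Y-linked transcripts, which were low in 3 of 8 KO and 2 of 7 WT kidneys. The count of 13 is therefore not read as a result about the list. The 3 with the smallest p were Erbb3 (0.20, SE 0.10, limma adjusted p = 0.937), Tgm1 (0.17, SE 0.11, limma adjusted p = 0.973) and Cldn3 (0.13, SE 0.09, limma adjusted p = 0.973). The highest KO values of Erbb3 (10.082, 10.025 and 9.973 in replicates 10, 11 and 12) were in samples high in adrenal transcripts. So was its lowest WT value (9.140, replicate 3). The remaining samples high in them, KO replicate 13 and WT replicate 2, read 9.773 and 9.695. The part of adrenal tissue in this difference was not tested.

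Several of these targets carried the split seen in Grhl2. Rab25, Epcam, Spint1, Esrp1 and St14, 5 of 14, were higher without overlap in the 5 samples with low Y-linked transcripts, as were 6.82% of all probe sets. Rab25, whose window holds AACCTGTT, read 9.31 to 9.73 in those 5 samples and 8.83 to 9.25 in the other 10. By genotype its lowest, median and highest values were 8.83, 9.15 and 9.73 in KO kidneys and 8.89, 9.11 and 9.63 in WT kidneys, a difference of 0.05 (SE 0.14). Dsg1a, the desmoglein associated with Grhl1 in mouse skin, was among the dimmest, at 4.11, 4.41 and 4.59 in KO kidneys and 3.99, 4.40 and 4.79 in WT kidneys, with a difference of 0.02 (SE 0.10).

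**Figure D4:**
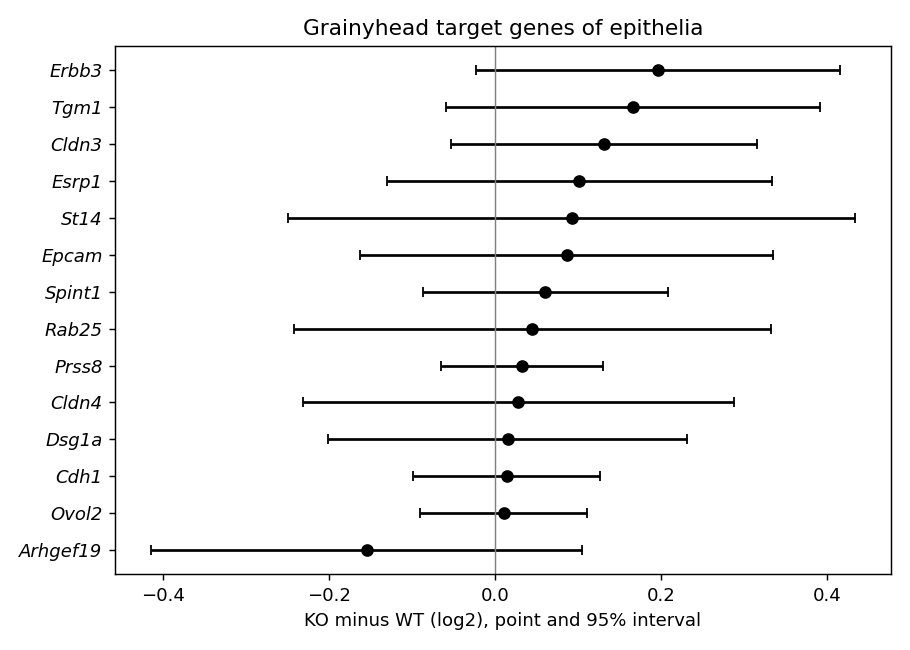
Genotype difference (x axis, KO minus WT, log2) of the 14 grainyhead target genes as points with 95% intervals from limma over 15 mice, ordered by size. All 14 intervals include 0, and 13 of the 14 points lie above it, from 0.01 for Ovol2 to 0.20 for Erbb3. The points come from the same mice and are not independent.

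Of 10 regulators that oppose or accompany grainyhead factors at the border of epithelial and mesenchymal states, 9 were measured, with Ovol2 shared with the target list. None passed in limma or had an unadjusted p under 0.05, and their median difference was -0.01. Zeb1, a repressor of epithelial genes that is in mutual repression with Grhl2 in other epithelia, differed by 0.13 (SE 0.09, limma adjusted p = 0.975). Twist1 differed by -0.06 (SE 0.08) and Snai2 by 0.08 (SE 0.11), both with a limma adjusted p of 0.997. Zeb1, 1 of the 9 (against 6.82% of all probe sets), also read higher without overlap in the 5 samples with low Y-linked transcripts, at 6.96 to 7.18, against 6.56 to 6.88 in the other 10.

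Of the 8 target and partner genes of the CP2 branch, which share Klf4 with the list before, again 0 passed in limma and 0 had an unadjusted p under 0.05, with a median difference of 0.09. Tyms, thymidylate synthase, a target of Tfcp2 in dividing cells, was at 7.93, 8.16 and 8.37 (lowest, median and highest) in KO kidneys and 7.67, 7.96 and 8.33 in WT kidneys, a difference of 0.17 (SE 0.09, limma adjusted p = 0.935). The Notch ligand gene Jag1, which is linked to Tfcp2l1 in the collecting duct, differed by 0.15 (SE 0.15, limma adjusted p = 0.984), and the nuclear receptor gene Esrrb by 0.10 (SE 0.10, limma adjusted p = 0.989). Jag1 and Esrrb, 2 of the 8 genes (against 6.82% of all probe sets), were higher without overlap in the 5 samples with low Y-linked transcripts, at 8.55 to 8.98 and 7.54 to 7.77, against 8.00 to 8.45 and 7.07 to 7.44 in the other 10. Cyp11a1, the first enzyme of steroid synthesis and a marker of adrenal cortex, spanned 4.82 to 10.3 in KO kidneys and 4.66 to 9.43 in WT kidneys with the adrenal transcripts of the samples.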

How the data were processed

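Kidney RNA of 15 mice was hybridised to 1-colour arrays, per the labels' protocols. The authors deposited log2 values, 1 for each probe set, obtained by RMA according to the submitters' processing notes. RMA equalises the arrays and compresses dim probe sets, so differences of Grhl1 and Grhl3 may be understated. The file gives no signal over background, and precision is limited by the number of arrays. Groups came from the sample titles, and each array is taken as 1 mouse.

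Of 41345 probe sets, 23521 had 1 gene symbol (22180 genes). For 23328 of them the symbol was taken by Entrez ID from RefSeq genes of GRCm38.p6, whether or not it changed. The genotype effect came from limma 3.58.1 under R 4.3.3 (lmFit and eBayes, no covariate, no filter on dim probe sets), with Benjamini-Hochberg adjustment over all 23521 and a threshold of 0.05. Exact permutation used all 6435 splits, and correlations 100000 shuffles within genotype, adjusted over the pairs. The fits were tested on simulated data. A list's gene was represented by its brightest probe set. A sample counted as low in Y-linked transcripts below the midpoint of that list's range, and as high in adrenal or liver transcripts when over 1 log2 unit above the median of samples.

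Members and lists were chosen with earlier results of these data known. The text names all members, the 5 most alike and 3 most opposite genes of each, and the 3 genes of smallest p in each pathway list. Rab25, Dsg1a, Epcam, Spint1, Esrp1, St14 and Cyp11a1 were chosen after their values were seen. Alternatives were other variance settings, covariates, subsets, filters and scalings.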

Additional observations from a re-analysis of the deposited data

Results flagged for a closer look

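In 30 groups (15 named genes in each genotype) the highest or lowest sample was set against Dixon's limit, and 4 values passed. Nominally, chance passes this limit in about 1 of 20 groups. Each group holds 7 or 8 arrays, and single arrays passed in 0.540% to 2.33% of all probe sets. The share was 1.10% for KO replicate 8, 0.540% for WT replicate 4 and 1.17% for WT replicate 6. These shares count each array alone, so they are not the share of groups in which any array passed. The count of 4 is therefore not read as a result about these genes. Grhl3 in KO replicate 8 stood above the other KO kidneys at 6.3402, and Ubp1 in the same mouse at 9.0924. Grhl3 in WT replicate 4 stood below the other WT kidneys at 5.5232. Snai2, a zinc finger repressor of epithelial genes, stood above the other WT kidneys in WT replicate 6 at 9.0832.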

How the results depend on the processing

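No family or pathway-list probe set passed in limma under any alternative run, and Grhl1, Grhl3, Tfcp2 and Ubp1 kept their direction in each. Grhl1 was removed by the filter on dim probe sets and had no value there. Its adjusted p ranged from 0.0691, once adjusted for the Y-linked mean, to 0.663 without the samples high in adrenal transcripts. Grhl2 turned to -0.011 once adjusted for the Y-linked mean, -0.0039 without the samples high in adrenal transcripts and -0.070 in the 5 samples with low Y-linked transcripts, a subset chosen after seeing the data. Tfcp2l1 turned to -0.0088 after that adjustment and to -0.042 in the 10 samples with Y-linked transcripts. Leaving out 1 mouse, Grhl2 ranged from -0.026 to 0.080 (below 0 in 6 of 15 fits), Tfcp2l1 from -0.024 to 0.066 (5 of 15), Grhl3 from 0.058 to 0.16, Tfcp2 from 0.17 to 0.27 and Ubp1 from -0.080 to -0.038. The correlation of Grhl2 with Tfcp2l1 was 0.706 over all 15 samples, which span 2 clusters, and between 0.590 and 0.779 within 1 genotype, without single samples or with other covariates. It was -0.573 among the 10 samples that had Y-linked transcripts and -0.564 over all 15 once adjusted for the Y-linked mean. That of Grhl3 with Ubp1 passed after adjustment with adrenal and liver means (0.845, permutation p = 0.0396 adjusted) or the urothelium mean (0.830, permutation p = 0.0480 adjusted) as covariates, and not without KO replicate 8. No paired analysis was possible because the replicate numbers of the KO and WT mice do not overlap. The cause of these shifts was not tested.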
